A study of Mus musculus with 6 samples.

Results

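The lysosomal genes described here are 44 genes for the enzymes that break down material inside the lysosome, the proteins of its membrane, subunits of the pump that acidifies it, and 3 transcription factors known to switch such genes on. They were chosen by name: each symbol was matched in the gene annotation and joined by its gene identifier to the counts, which found all 44 among 54532 genes. The values come from RNA sequencing of mBMSCs, primary mouse bone marrow mesenchymal stem cells of wild type genotype, harvested after 7 days of osteogenic induction. Both groups received 50 µg/mL ascorbic acid, 10 mM β-glycerophosphate and dexamethasone (100 nM in the sample labels, a lower concentration in the methods of the study), and 3 of the 6 cultures (Ni) also received 0.1 µM nickel as NiCl2 while the other 3 (control, labelled Con) did not. The 3 cultures of a group are described as independent biological replicates, and the age of the donor mice is not given in the sources used here. A primary marrow culture is a mixture, and all 22 macrophage markers listed for this work were above 1 FPKM (fragment counts scaled to gene length and sequencing depth), led by Lyz2 at 8883 FPKM. Fewer cells of a type and less RNA per cell therefore cannot be told apart in these bulk libraries.

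Lysosomes are acidic compartments in which cathepsins cut proteins, glycosidases and sulfatases strip sugars and sulfate from glycans, and lipases with their helper proteins take lipids apart. A proton pump, the vacuolar ATPase (V-ATPase), keeps the lumen acidic, and heavily glycosylated membrane proteins such as LAMP1 line the inside of the membrane. Many of these genes carry a short palindromic element near their start site, the CLEAR motif, which holds the letters CACGTG and is bound by the MiT/TFE transcription factors TFEB, TFE3 and MITF. Macrophages and osteoclasts are especially rich in lysosomes, while bone-forming cells use them to degrade matrix they have taken up.

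The CLEAR-type letters were frequent in the members' promoters. Promoters of RefSeq genes on GRCm38.p6, each 250 bases before to 50 bases after the start site, were matched for 39 of the 44 genes. CACGTG, which reads the same on both strands, stood in the promoters of 14 of these 39 members (35.9%), against 8.09% of the 27025 genes with a promoter. GTCACGTG or its reverse complement CACGTGAC, both of which contain CACGTG, stood in 11 members (28.2%), against 2.55% of genes. TCACGTGA, which also contains CACGTG, stood in 7 members (17.9%), against 1.12% of genes. A match describes the letters only and is not a measured binding site. The motif is known from lysosomal genes such as these, so the higher shares among the members are no independent result. The comparison covers all genes with a promoter, expressed here or not.

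Lamp1, the gene of the most abundant lysosomal membrane protein among the members, held 4 copies of CACGTG within the 80 bases before its start site, and no other member held more than 2. These 80 bases (chr8:13159081-13159160, plus strand, GRCm38.p6) are shown because they carry the densest cluster, with each CACGTG in capitals.
Lamp1: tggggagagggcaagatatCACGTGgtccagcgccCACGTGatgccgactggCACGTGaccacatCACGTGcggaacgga

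The longer form lay within 30-base windows of the other 10 carriers, which are shown so that the letters flanking the motif can be compared, each in the direction of its gene and with GTCACGTG or CACGTGAC in capitals. The windows are chr2:164833749-164833778 (plus strand) for Ctsa, chr7:142387908-142387937 (minus) for Ctsd, chr12:102439124-102439153 (minus) for Lgmn, chrX:134601182-134601211 (minus) for Gla, chr9:114401018-114401047 (plus) for Glb1, chr11:101070009-101070038 (plus) for Naglu, chr11:119355522-119355551 (minus) for Sgsh, chr7:126583340-126583369 (minus) for Cln3, chr8:3500462-3500491 (plus) for Mcoln1 and chr8:105566050-105566079 (minus) for Atp6v0d1.
Ctsa: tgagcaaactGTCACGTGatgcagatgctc
Ctsd: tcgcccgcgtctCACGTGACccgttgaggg
Lgmn: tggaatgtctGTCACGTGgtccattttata
Gla: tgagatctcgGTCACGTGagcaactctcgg
Glb1: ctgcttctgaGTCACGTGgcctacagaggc
Naglu: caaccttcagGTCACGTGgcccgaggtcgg
Sgsh: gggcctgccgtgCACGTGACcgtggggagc
Cln3: cacgggtactGTCACGTGACccccaacctg
Mcoln1: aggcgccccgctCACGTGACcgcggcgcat
Atp6v0d1: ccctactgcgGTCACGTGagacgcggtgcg

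The carriers spanned the roles: 3 proteases, 4 glycan enzymes, 3 membrane proteins and 1 V-ATPase subunit. None of the lipid-handling genes with a promoter here and none of the 3 MiT/TFE genes had the longer form in its window. The median log2 fold change of Ni over control was -0.08 for the 11 carriers and -0.04 for the other 28 members with a promoter.

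The lysosomal genes were abundantly expressed, and all 44 passed the filter on low counts with at least 390 counts in every library. The 6 libraries held from 16101033 to 18642504 counts. Per length of gene, the mean over the 6 libraries ran from 4.80 FPKM for Tfeb to 2306 FPKM for Psap. Psap encodes prosaposin, the precursor of the saposins that present sphingolipids to their enzymes, and stood first, ahead of the proteases Ctsd at 1385 FPKM, Ctss at 1302 FPKM and Ctsb at 1125 FPKM. The 3 transcription factors and several enzymes of glycosaminoglycan breakdown, among them Idua at 7.50 FPKM and Arsb at 7.95 FPKM, lay at the low end.

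**Figure D1:**
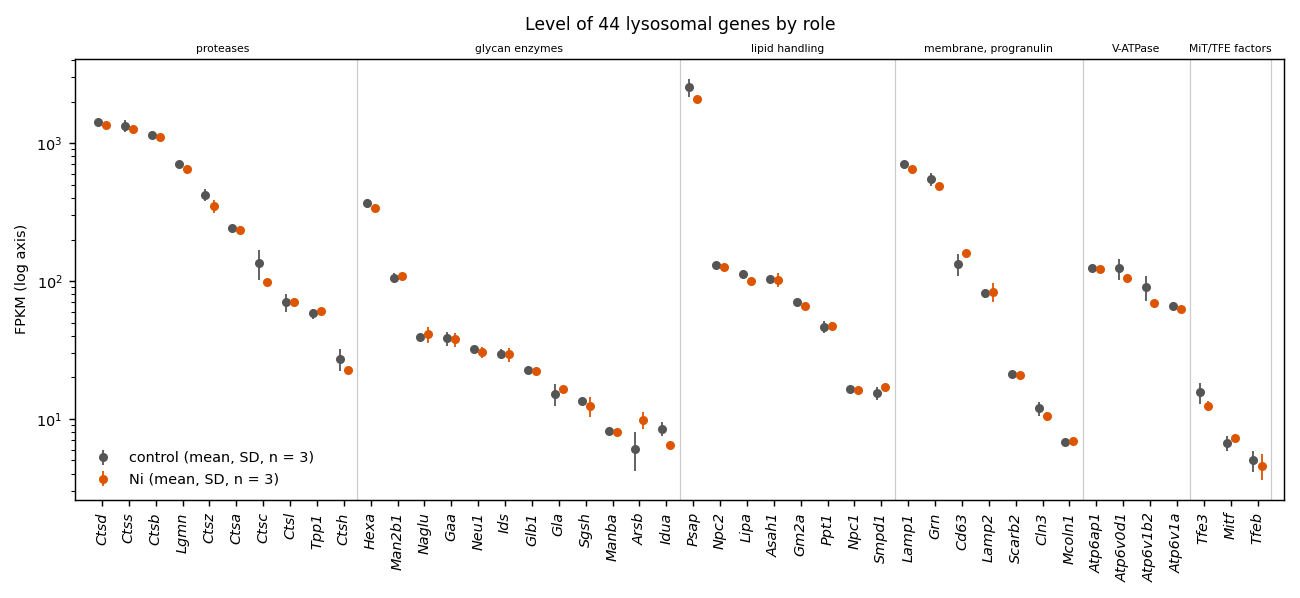
Level of the 44 lysosomal genes in FPKM (log axis), grouped by role and ordered by mean level, with the mean and SD of 3 control (grey) and 3 Ni (orange) libraries. Across the 44 genes the levels differ far more between genes than between the groups, from 4.80 FPKM for Tfeb to 2306 FPKM for Psap. The means of the groups lie close together for most genes.

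Together the 44 genes took a slightly smaller share of the Ni libraries. They made up 3.60%, 3.67% and 3.50% of all counts in control replicates 1, 2 and 3, and 3.26%, 3.39% and 3.24% in Ni replicates 1, 2 and 3. After TMM normalization, which scales libraries to a common composition, their summed level was 35731, 37246 and 34787 CPM (counts scaled to a common library size) in the controls and 32950, 33870 and 32192 CPM in the Ni libraries. All 3 Ni sums lay below all 3 control sums, a separation for which an exact two-sided permutation test of 3 against 3 libraries can reach no p below 0.1. Because the most abundant genes dominate it, the sum follows Psap, the cathepsins, Lamp1 and Grn more than the other members.

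Gene by gene, no lysosomal gene reached an adjusted p of 0.05 (quasi-likelihood test of edgeR, p adjusted by Benjamini-Hochberg), as 0% of the 14624 genes tested did. At an unadjusted p under 0.05, Arsb was higher in Ni, 1 of 44 members (2.27%) against 7.59% of all tested genes. In the other direction, Ctsc, Idua, Atp6v1b2 and Tfe3 were lower at that threshold, 4 of 44 members (9.09%) against 5.83% of all tested genes. The 3 Ni libraries lay all above the 3 controls for Arsb alone, against 7.97% of all genes, and all below them for Idua, Lipa, Gm2a and Lamp1, against 6.71% of all genes. By either measure the share of members was below that of all genes in the higher direction and, by fewer than 2 genes, above it in the lower direction.

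The fold changes were small. The median log2 fold change of the 44 genes was -0.06, with 32 negative and 12 positive, where the median of all tested genes was -0.01, with 7596 of 14624 negative. The median size of the change, whatever its sign, was 0.09 on the log2 scale among the members and 0.16 among all genes. The members ran from -0.46 for Ctsc to 0.69 for Arsb. For 33 of the 44 genes (75%) the 95% interval of the log2 fold change lay wholly within 0.5 of 0 in either direction, so that changes beyond that size lie outside the interval for those genes.

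**Figure D2:**
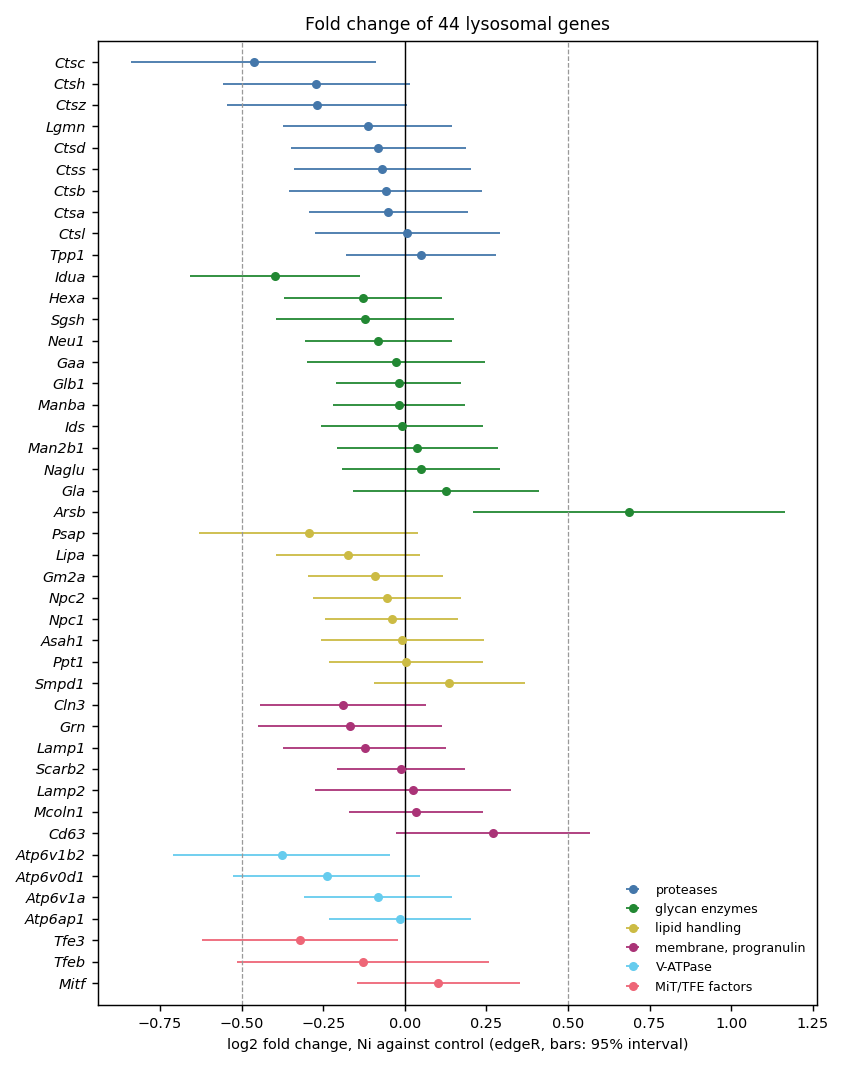
Log2 fold change of Ni against control for the 44 lysosomal genes (points, coloured by role) with 95% intervals from edgeR, with dashed lines at -0.5 and 0.5. Most points lie between -0.3 and 0.15 with intervals across 0, and Arsb (0.69), Ctsc (-0.46) and Idua (-0.40) lie farthest out.

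The 10 proteases, 8 of them negative, had a median log2 fold change of -0.08. Ctsd (chr7:142375911-142388038), the main aspartic protease of the lysosome, was the most abundant protease per length of gene (FPKM) and stood at 3311, 3439 and 3361 CPM in the controls and 3023, 3412 and 3126 CPM in the Ni libraries. Its groups overlapped, since Ni replicate 2 lay among the controls, and its log2 fold change was -0.08 ± 0.12 (SE) with an adjusted p of 0.812. Of its exon bases, 34.4% also belong to another gene model on the same strand, Gm49369, which has 0 counts in every library.

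Ctsc (chr7:88278085-88310888), cathepsin C, which activates the granule proteases of immune cells, had the largest difference of the proteases. Its level was 903, 891 and 566 CPM in the controls and 580, 567 and 565 CPM in the Ni libraries. Control replicates 1 and 2 were high, while control replicate 3 stood within the range of the Ni libraries. On the log2 scale the difference was -0.46 ± 0.17 (SE, unadjusted p = 0.0207, adjusted p = 0.334, edgeR's quasi-likelihood test). The other 8 proteases, which include the cysteine cathepsins Ctsb, Ctsl and Ctss, the asparaginyl protease Lgmn and the peptidases Ctsa and Tpp1, lay between -0.27 (Ctsh and Ctsz) and 0.05 (Tpp1) on the log2 scale.

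The 12 glycan-degrading enzymes had a median log2 fold change of -0.02, with 8 negative and 4 positive. Hexa (chr9:59539540-59565109), the α subunit of β-hexosaminidase, was the most abundant of them per length of gene (FPKM) and stood at 743, 792 and 681 CPM in the controls and 705, 676 and 645 CPM in the Ni libraries. The groups overlapped and the log2 fold change was -0.13 ± 0.11 (SE), with an adjusted p of 0.639. Besides Arsb and Idua, the group ran from -0.13 for Hexa to 0.13 for Gla on the log2 scale.

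Arsb (chr13:93771630-93943016), the sulfatase that removes sulfate from the N-acetylgalactosamine of dermatan and chondroitin sulfate, was the member with the greatest difference in either direction. It was measured at 28.6, 32.1 and 50.5 CPM in control replicates 1, 2 and 3 and at 59.4, 51.2 and 68.0 CPM in Ni replicates 1, 2 and 3. Every Ni library lay above every control, though control replicate 3 and Ni replicate 2 differed by less than 1 CPM. The log2 fold change was 0.69 ± 0.21 (SE, 95% interval 0.21 to 1.16), with an unadjusted p of 0.0104 and an adjusted p of 0.305 in edgeR's quasi-likelihood test. DESeq2's Wald test called it, at an adjusted p of 0.0493, as it called 1.49% of its 14065 tested genes higher and 0.334% lower, but it called no member when run without its own filter on the genes that edgeR tested. Gene models on the opposite strand, Gm26527 and Gm47210, cover 39.9% of the Arsb exon bases, and they hold 0 and at most 4 counts per library.

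Idua (chr5:108660331-108684557), α-L-iduronidase, acts on dermatan and heparan sulfate, and lay the other way from Arsb. Its level was 37.3, 39.5 and 31.5 CPM in the controls and 29.3, 27.1 and 25.8 CPM in the Ni libraries. All Ni libraries lay below all controls, with control replicate 3 again nearest to them. The log2 fold change was -0.40 ± 0.12 (SE, unadjusted p = 0.00666, adjusted p = 0.293, edgeR's quasi-likelihood test), and Dgkq and Slc26a1, which cover 6.30% of its exon bases on the opposite strand, had log2 fold changes of -0.02 and 0.14. The enzymes of the same glycosaminoglycan pathways did not share a direction, with Ids at -0.01, Naglu at 0.05 and Sgsh at -0.12.

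The 8 lipid-handling genes had a median log2 fold change of -0.05, with 6 negative. Psap (chr10:60277627-60302597) was measured at 7288, 7921 and 5851 CPM in the controls and 5818, 5974 and 5372 CPM in the Ni libraries. Control replicate 3 stood between Ni replicates 1 and 2, so the groups overlapped, and the log2 fold change was -0.30 ± 0.15 (SE), with an adjusted p of 0.416. The summed level of the 8 genes, to which Psap contributes most, was 9388, 9988 and 7980 CPM in the controls and 7851, 7935 and 7426 CPM in the Ni libraries. All Ni sums lay below all controls, with control replicate 3 only just above the highest of them. The sums of every other role group overlapped between control and Ni. Those of the proteases, for example, ran from 16691 to 17705 CPM in the controls and from 15835 to 16987 CPM in the Ni libraries.

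Lipa (chr19:34492318-34527474), the acid lipase that frees cholesterol and fatty acids, was separated between the groups by a small margin. It stood at 360, 328 and 318 CPM in the controls and at 292, 292 and 309 CPM in the Ni libraries. Control replicate 1 was the highest, and the remaining controls exceeded the highest Ni library only slightly. This gave a log2 fold change of -0.17 ± 0.10 (SE), with an adjusted p of 0.466.

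Gm2a (chr11:55098115-55113029), the GM2 activator that lifts its ganglioside out of the membrane for β-hexosaminidase, was also separated. The controls lay at 284, 289 and 300.5 CPM and the Ni libraries at 272, 267 and 282 CPM, so that the gap between the groups was smaller than the spacing of libraries within either group. Its log2 fold change was -0.09 ± 0.09 (SE), with an adjusted p of 0.709. The cholesterol exporters Npc1 and Npc2, the ceramidase Asah1 and the thioesterase Ppt1 lay between -0.05 and 0.00 on the log2 scale, and the sphingomyelinase Smpd1 had the highest value of the group at 0.14.

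The 7 genes of membrane proteins and progranulin had a median log2 fold change of -0.01, with 4 negative and 3 positive. Lamp1 (chr8:13159161-13175338), the gene with 4 CACGTG copies shown above, was measured at 1978, 1939 and 1818 CPM in the controls and at 1763, 1762 and 1741 CPM in the Ni libraries. The Ni libraries were tightly grouped and lay below all controls, of which replicate 3 was the lowest. Its log2 fold change was -0.12 ± 0.11 (SE), with an adjusted p of 0.664, and its relative Lamp2, which also serves chaperone-mediated autophagy, was at 0.02.

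Cd63 (chr10:128900989-128912822), a tetraspanin of late endosomes and exosomes, was the member after Arsb with the largest positive value. It was measured at 453, 429 and 593 CPM in the controls and at 601, 586 and 593 CPM in the Ni libraries. Control replicate 3 lay inside the Ni range and the other controls far below it. Its log2 fold change was 0.27 ± 0.13 (SE), with an adjusted p of 0.402, and 11.0% of the 50-base stretches of its exons also occur in other annotated genes. Among the others, Cln3 was at -0.19, Grn, the progranulin gene, at -0.17, the receptor Scarb2 at -0.01 and the calcium channel Mcoln1 at 0.03.

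The 4 V-ATPase genes all had negative log2 fold changes, with a median of -0.16, and none had separated groups. Atp6ap1 (chrX:74297097-74304721), an accessory subunit, was the most abundant per length, with 388, 361 and 387 CPM in the controls and 384, 356 and 384 CPM in the Ni libraries. Its groups overlapped fully, with replicate 2 the lowest in each, and its log2 fold change was -0.02 ± 0.10 (SE), with an adjusted p of 0.963. Atp6v1b2 (chr8:69088646-69113711), an ATP-binding subunit of the cytosolic part of the pump, stood at 535, 541 and 366 CPM in the controls and at 383, 364 and 363 CPM in the Ni libraries. Control replicate 3 lay within the Ni range, and the log2 fold change was -0.38 ± 0.15 (SE, unadjusted p = 0.0295, adjusted p = 0.344, edgeR's quasi-likelihood test). Atp6v0d1, of the membrane part, was at -0.24 and Atp6v1a, the catalytic subunit, at -0.08.

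The 3 MiT/TFE factors differed in the sign of their values. Tfe3 (chrX:7762560-7775202) was measured at 144, 172 and 120.1 CPM in the controls and at 110.5, 129 and 109 CPM in the Ni libraries. Ni replicate 2 exceeded control replicate 3, so the groups overlapped, and the log2 fold change was -0.32 ± 0.13 (SE, unadjusted p = 0.0379, adjusted p = 0.356, edgeR's quasi-likelihood test). Without control replicate 2, its highest library, the value was -0.19. Tfeb (chr17:47737030-47792419), the best-known regulator of lysosomal genes, was at 27.6, 33.9 and 24.2 CPM in the controls and at 24.7, 32.3 and 21.5 CPM in the Ni libraries, with replicate 2 the highest in each group and a log2 fold change of -0.13 ± 0.17 (SE, adjusted p = 0.788). Mitf (chr6:97807052-98021349), which also acts in osteoclast precursors and pigment cells, was at 38.5, 39.6 and 48.0 CPM in the controls and at 47.2, 43.6 and 44.5 CPM in the Ni libraries. Its highest library was control replicate 3, and its log2 fold change was 0.10 ± 0.11 (SE, adjusted p = 0.727).

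**Figure D3:**
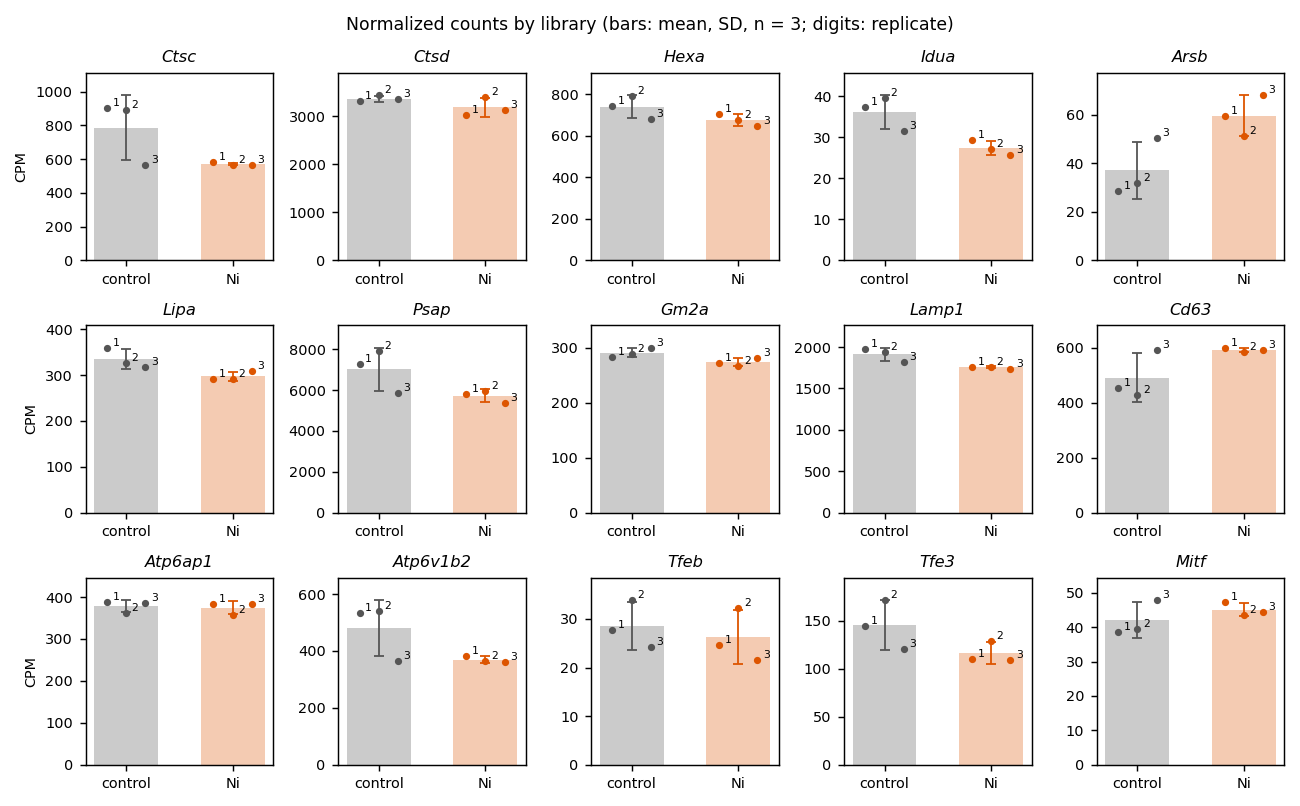
Normalized counts (CPM) of the 15 genes given by library, with points for the single libraries (digits give the replicate), and bars and whiskers for the mean and SD of 3 control and 3 Ni libraries. For Ctsc, Atp6v1b2 and Cd63 control replicate 3 lies at the level of the Ni libraries, while for Idua, Lipa, Gm2a and Lamp1 all Ni points lie below all control points and for Arsb above them.

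Control replicate 3 stood apart from the other controls in the lysosomal genes as in the libraries as a whole. It was nearer to the Ni mean than to the mean of the other controls for 34 of the 44 genes (77.3%), and for 67.6% of all tested genes. Without it, with 2 controls left, 9 members reached an adjusted p of 0.05 in edgeR's quasi-likelihood test. Arsb and Cd63 were the members called higher, 2 of 44 (4.55%) against 8.69% of all genes tested, and Ctsc, Ctsh, Idua, Psap, Atp6v1b2, Atp6v0d1 and Tfe3 were called lower, 7 of 44 (15.9%) against 6.49% of all genes. Ctsh and Atp6v0d1 are named after their values were seen.

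Control replicate 3 was nearer to the Ni mean than to the mean of the other controls for each of these 9 genes. They were picked by passing without that library, so the growth of their fold changes follows from the choice. All 9 kept their direction. For Arsb the log2 fold change became 0.98 (adjusted p = 0.000453), for Cd63 0.43 (adjusted p = 0.00399), for Ctsc -0.65 (adjusted p = 0.000281) and for Atp6v1b2 -0.54 (adjusted p = 0.000953). For Psap it became -0.41, for Idua -0.48, for Tfe3 -0.44, for Ctsh -0.39 and for Atp6v0d1 -0.37, with adjusted p between 0.0107 and 0.0185. The median of the 44 genes stayed at -0.06, with 28 negative. Which of the controls represents the culture condition better was not tested.

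**Figure D4:**
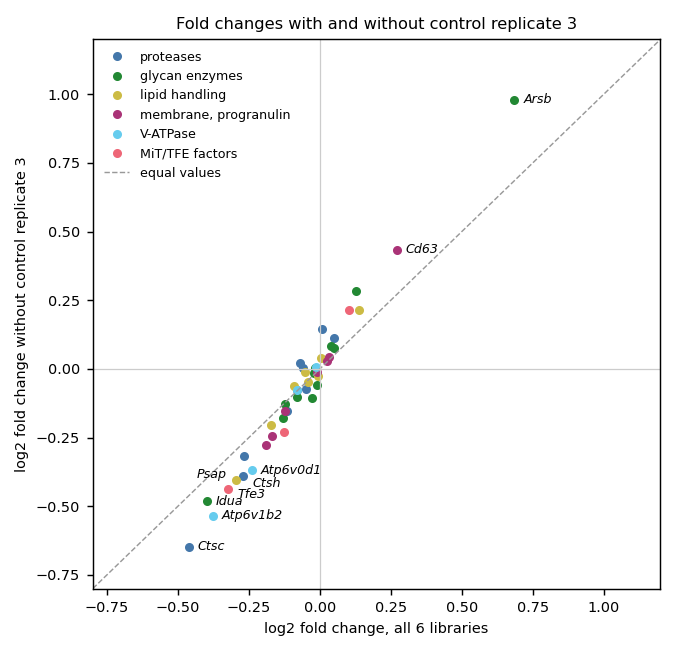
Log2 fold change of Ni against control for the 44 lysosomal genes with all 6 libraries (horizontal axis) and without control replicate 3 (vertical axis), coloured by role, with the line of equal values dashed. The 9 named genes were picked because they pass an adjusted p of 0.05 in edgeR's test without that library but not with it. Their place farther from 0 on the vertical axis, as for Arsb at 0.98 against 0.69, follows from that choice.

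Other genes of the lysosome and its neighbours, from lists chosen by function, gave values of similar size. The 43 further lysosomal genes tested had a median log2 fold change of -0.06. At an unadjusted p under 0.05, 2 of them were higher and 1 lower (edgeR's quasi-likelihood test), against 7.59% and 5.83% of all tested genes. Hyal1, a hyaluronidase, was at 7.43, 7.62 and 13.0 CPM in the controls and at 12.9, 14.1 and 13.4 CPM in the Ni libraries, a log2 fold change of 0.53 with an unadjusted p of 0.0334. Acp2, the lysosomal acid phosphatase, was at 226, 232 and 173 CPM in the controls and at 171, 169 and 172 CPM in the Ni libraries, a log2 fold change of -0.30 with an unadjusted p of 0.0311. In both genes control replicate 3 lay beside the Ni libraries. It did so too for Pla2g4a, which had a log2 fold change of 0.39 and an unadjusted p of 0.0899. Pla2g4a encodes a cytosolic phospholipase rather than a lysosomal enzyme, but it stands in this list and is counted among the 43. Aga, which splits the bond between sugar and asparagine in glycoproteins and is named after its value was seen, was the other gene to pass, with a log2 fold change of 0.30 (unadjusted p = 0.0186). Its controls lay between 25.4 and 30.4 CPM and its Ni libraries, all above them, between 33.2 and 34.2 CPM. Of the 43 genes, 1 was separated in the higher direction and 3 in the lower, against 7.97% and 6.71% of all tested genes.

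A further 14 V-ATPase genes had a median log2 fold change of -0.12, with 13 of 14 negative. At an unadjusted p under 0.05, 3 of the 14 were lower, where 5.83% of all genes were. They were Atp6ap2 at -0.25 (unadjusted p = 0.0373), Atp6v1e1 at -0.24 (unadjusted p = 0.0281) and Atp6v0e at -0.22 (unadjusted p = 0.0438) in edgeR's quasi-likelihood test. These 3 and Atp6v0b had all Ni libraries below all controls, 4 of 14 against 6.71% of all genes, and all 4 are named after their values were seen. The largest differences were those of Tcirg1, the a3 subunit prominent in osteoclasts, at -0.28 (unadjusted p = 0.0539), Atp6v1f at -0.26 (unadjusted p = 0.0691) and Atp6v0e2 at -0.25 (unadjusted p = 0.165). With the 4 V-ATPase members, 17 of the 18 V-ATPase genes counted here had a negative value, where 7596 of all 14624 tested genes did. None of the 18 reached an adjusted p of 0.05, and Atp6v0d2, placed with the osteoclast markers, is not among them. Over all tested genes, 7.59% passed an unadjusted p of 0.05 as higher and 5.83% as lower. Of 33 autophagy genes, 3 passed as higher and 0 as lower, with a median of 0.00. They were Bnip3, a mitophagy receptor, at 0.70 (unadjusted p = 0.0110), Wipi1, of the forming autophagosome, at 0.44 (unadjusted p = 0.00577), and Atg9a, a lipid scramblase, at 0.27 (unadjusted p = 0.0257).

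Of 21 tested genes of the lysosomal nutrient-sensing machinery around mTORC1, 0 passed an unadjusted p of 0.05 in either direction, and the median was -0.06. The largest values were those of the GTPase gene Rragd at -0.24 (unadjusted p = 0.0834) and of the scaffold genes Lamtor3 at -0.17 (unadjusted p = 0.0732) and Lamtor2 at -0.16 (unadjusted p = 0.276). All Ni libraries lay below all controls for 3 of the 21 genes, against 6.71% of all tested genes, and above them for 0, against 7.97%. The 3 were Rragd, Lamtor1 and Lamtor3, of which Lamtor1 is named after its values were seen. For Lamtor3 the Ni libraries lay between 57.3 and 57.6 CPM and the controls between 63.8 and 65.8 CPM.

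Cell type markers also differed between the libraries. The 22 macrophage markers had a median log2 fold change of -0.20, with 18 negative. At an unadjusted p under 0.05, 7 were lower and 0 higher (edgeR's quasi-likelihood test), against 5.83% and 7.59% of all tested genes. The summed level of the macrophage markers ran from 30436 to 34432 CPM in the controls and from 29654 to 30225 CPM in the Ni libraries. The groups of these sums did not overlap, as those of the lysosomal genes did not, and control replicate 3 was the highest of the 6 for the macrophage markers. That position rests on Lyz2, at 15097 CPM in that library: the other 21 markers summed to 20107, 22126 and 19335 CPM in the controls and to 17058 to 18871 CPM in the Ni libraries, with control replicate 3 the lowest control, as for the lysosomal genes. Among the 22 markers, log2 fold changes ran from -0.98 for Aif1 to 0.24 for Mrc1. Lyz2 was at 0.02, Csf1r at 0.01, Ptprc at -0.36 and Adgre1 at -0.35.

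The 16 osteoblast markers all passed an unadjusted p of 0.05 in the higher direction, with a median of 1.10, where 7.59% of all tested genes passed. The osteoblast sums were 9185 to 17274 CPM in the controls and 22083 to 29783 CPM in the Ni libraries. Of 20 stromal markers, 11 were higher at that threshold, with a median of 0.51, and their sums ran from 7892 to 12150 CPM and from 12383 to 14185 CPM. Osteoclast markers, of which Ocstamp, Dcstamp, Calcr and Oscar lay under 1 FPKM, summed to 1220, 1424 and 731 CPM in the controls and to 694 to 774 CPM in the Ni libraries. Acp5 made up most of that sum, and the other 9 markers summed to 207, 234 and 315 CPM in the controls and to 267 to 279 CPM in the Ni libraries, with control replicate 3 the highest of the 6. The 6 osteoclast markers tested had a median log2 fold change of 0.08, with 4 positive, and Acp5 was at -0.90 and Ctsk at 0.62. Of the remaining lists, the neutrophil genes Ngp, Ltf, S100a9 and Retnlg were at 0 in all libraries. The 6 endothelial markers summed to 45.7 to 75.5 CPM in the controls and to 43.5 to 47.7 CPM in the Ni libraries. Without Pecam1, the other 5 summed to 18.6 to 21.2 CPM in the controls and to 14.5 to 22.4 CPM in the Ni libraries. The adipocyte markers summed to 82.8 to 101 CPM in the controls and to 92.0 to 113 CPM in the Ni libraries. The part of these cell types in the values of the lysosomal genes was not tested.

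**Figure D5:**
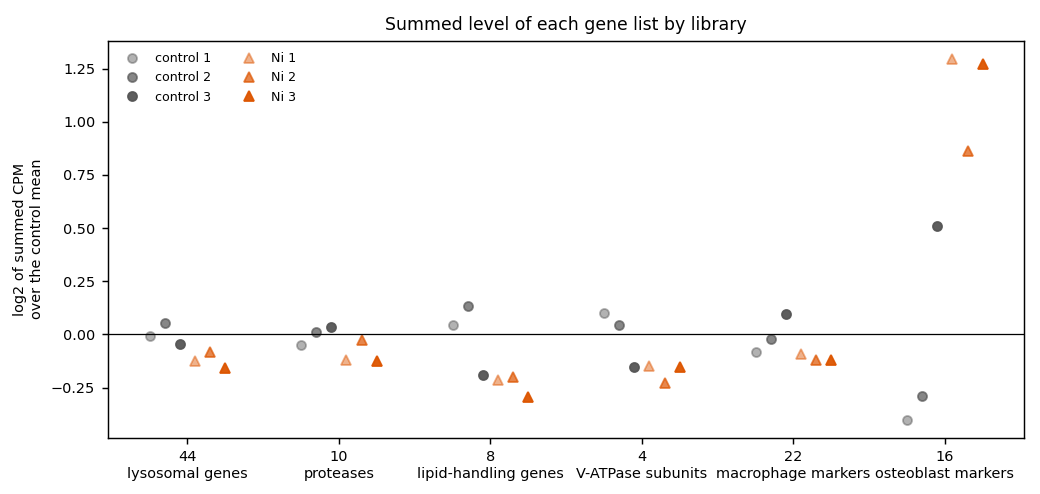
Summed CPM of the 44 lysosomal genes, 3 of their role groups, and the macrophage and osteoblast markers in each library, as log2 of the ratio to the control mean (circles control, triangles Ni). The lysosomal and macrophage sums of the Ni libraries lie just below all controls, and the protease sums of the 2 groups overlap. The lipid-handling and V-ATPase sums of control replicate 3 lie at the level of the Ni libraries, and the osteoblast sums of the Ni libraries lie above all controls.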

How the data were processed

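The authors deposited raw counts, whole-number reads per gene without normalization, and FPKM values of the same libraries, on GRCm38 per the labels. The aligner, counting tool and strand setting are not given in the sources used here, so reads of overlapping genes on opposite strands may be mixed: 12 members share over 5% of their exon bases with another gene, 32 do not.

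Counts were filtered with filterByExpr, TMM-normalized and tested with the quasi-likelihood test (robust) of edgeR 4.0.16 in R 4.3.3, group as the only term, with Benjamini-Hochberg adjustment over 14624 genes. CPM values use TMM library sizes, and the separation of groups was read on log2 CPM (prior count 2). DESeq2 1.42.0, limma 3.58.1 on log2(FPKM + 1) and log2(FPKM + 0.1), no filter, a replicate block and leaving out each library were alternatives, and DESeq2 on the genes edgeR tested was added after the data were seen. The scripts were tested on simulated counts. FPKM served to compare genes. Intervals cover 95%.

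Members and lists were chosen with earlier results of these data known. Genes given by library are those with separated groups, the 3 MiT/TFE factors, and those with the highest level and the largest log2 fold change in each role. Other lists give up to 3 genes with the largest changes. Within groups, libraries differed by more than sampling noise (chi-square per degree of freedom 4.56 to 47.8), so none is a copy of another. This measure cannot tell separate cultures from separate libraries of the same culture.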

Additional observations from a re-analysis of the deposited data

How the results depend on the processing

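The count of members at an adjusted p under 0.05 was 0 with edgeR, 2 with no filter on low counts (Arsb at 0.70, adjusted p = 6.16e-06, and Ctsc at -0.45, adjusted p = 0.00925), 1 with DESeq2, 0 with DESeq2 run on the genes that edgeR tested, and from 0 to 9 with each library left out, the 9 without control replicate 3. At an unadjusted p under 0.05, higher members numbered 1 with edgeR, 2 with no filter, 2 with DESeq2 and 1 to 3 with a library left out, and lower members 4 with edgeR, 7 with no filter, 2 with limma on log2(FPKM + 1), 2 on log2(FPKM + 0.1) and 1 to 11 with a library left out (11 without control replicate 3, 1 without control replicate 1 or 2 or Ni replicate 1 or 3). With a library left out, the median log2 fold change ran from -0.0761 to -0.0466, members with separated groups from 1 to 5 higher and from 5 to 15 lower (15 without control replicate 3, 14 without Ni replicate 2), and macrophage markers at that threshold from 1, without control replicate 2, to 13, without control replicate 3, against 7. The further lysosomal genes at that threshold numbered 3 with edgeR, 6 with no filter, 5 with DESeq2 and 0 to 11 with a library left out (11 without control replicate 3, 0 without control replicate 1 or 2 or Ni replicate 3, 1 without Ni replicate 1). The log2 fold change of Atp6ap1 ran from -0.0471 to 0.0232 with a library left out and changed sign without control replicate 1 (0.00319), control replicate 3 (0.00560) or Ni replicate 2 (0.0232), and that of Tfeb ran from -0.304 to 0.0134 and changed sign without control replicate 2. None of the other 13 members given by library changed sign under the alternatives, and of the remaining members Ctsb (0.00466), Ctss (0.0214) and Manba (0.00507) did so without control replicate 3. With a library left out, values also moved by over 1.5 times from that with all 6 libraries for Ctsd (-0.130 to -0.0431), Hexa (-0.179 to -0.0759), Cd63 (0.183 to 0.434), Tfe3 (-0.438 to -0.185) and Mitf (0.0440 to 0.215). Others moved less from that value but still ranged widely: Arsb from 0.529 to 0.980, Ctsc from -0.647 to -0.352, Psap from -0.406 to -0.199 and Atp6v1b2 from -0.535 to -0.284. For the fits with a library left out, no share of all genes stands beside the counts of separated groups and of unadjusted p. Groups also separate more readily with fewer libraries, so these counts cannot be set against those from all libraries. A share of all genes is likewise missing for no filter, for limma and for unadjusted p with DESeq2. The counts from those fits, with Arsb and Ctsc under no filter among them, cannot be read as results about the members. The cause of these shifts was not tested.

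The replicate numbers were not taken as pairs: the deviations of same-numbered libraries correlated at 0.01, 0.26 and 0.14. With a replicate block in edgeR's test, 1 member passed an adjusted p of 0.05 (Arsb, 0.72, adjusted p = 0.0313). At an unadjusted p under 0.05, 2 members were higher and 6 lower, and 7 further lysosomal genes passed in either direction. No share of all genes stands beside these counts, so they cannot be read as results about the members. With 3 libraries a group, the 95% interval stays within 0.5 of 0 on the log2 scale for 33 of 44 members.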
